A study of Homo sapiens with 4 samples.

Results

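Transcripts of zinc finger genes named ZNF plus a number were examined among the RNAs recovered with Flag-tagged AKT1 from MDA-MB-231 cells, a human triple-negative breast cancer line. A member is a protein-coding gene with such a symbol whose span in the RefSeq annotation of GRCh38.p14, introns included, was overlapped by at least 1 bp by a peak of the Flag-AKT1 E17K list. There were 20 such genes among 1708 protein-coding genes with a peak, and they held 39 of the 4838 peaks of that list. RNA immunoprecipitation sequencing (RIP-seq) was performed on cells transfected with a plasmid for Flag-tagged AKT1 carrying the E17K mutation or for the wild-type (WT) protein. Each plasmid gave 1 anti-Flag immunoprecipitate library and 1 input library, 4 in all, so no difference between libraries has a replicate check. Both kinds of cells share the line and its own AKT1, and the Flag protein came from a transfected plasmid rather than from the cells' own gene. For each plasmid the authors deposited a peak list that gives, for each peak, how many reads came from the immunoprecipitate and how many from a control. The control was read as the input library, as the samples are labelled, although the lists do not say so and the series design also mentions IgG. The genes VIM, CD44, CAV1 and EGFR, known to be expressed in this line, had 1 or more peaks each with Flag-AKT1 E17K and held 2032, 39, 27 and 586 immunoprecipitate reads.

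Zinc finger genes of the ZNF series mostly encode proteins with tandem fingers, each a short loop held by cysteine and histidine around a zinc ion, and such proteins commonly bind DNA and control transcription. Many carry a KRAB domain at the start of the protein, which recruits the corepressor TRIM28 and through it the histone methyltransferase SETDB1, and this system silences transposable elements. In most KRAB genes the fingers are encoded by a single long last exon. Some members do other work, such as ribosome assembly or mitotic spindle control, and ZNF217 is a gene that is amplified in breast cancers.

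The lists give no library totals, so depth is known only inside peaks. The Flag-AKT1 E17K list held at least 11 immunoprecipitate reads in every peak, and the ZNF peaks together had 2159 immunoprecipitate and 934 input reads, 0.446% and 0.376% of the reads of each library in the list. The ratio of immunoprecipitate to input reads was not scaled for library size, so only differences within a list can be read. Intervals of shares and ratios are 95% Wilson intervals, which take in only the error of counting, and intervals of medians are exact 95% intervals from the ranked values of the genes or peaks, which are not replicates. The plasmid's own gene, AKT1, held 73374 immunoprecipitate and 48883 input reads in this list, and comparisons with the remaining peaks are given with and without it where it changes them. How reads that match several ZNF genes were counted is not given in the sources used here, and single members could therefore share reads with related genes.

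Of 477 annotated ZNF genes, 4.19% (interval 2.73% to 6.39%) had a peak in the Flag-AKT1 E17K list, compared to 8.62% (8.24% to 9.02%) of the 19575 other protein-coding genes. The list has very different numbers of peaks on different chromosome strands, so the share was also taken by chromosome and strand. Chromosomes 7 and 8 each gave 6 of the 20 members, chromosome 10 gave 3, and chromosomes 5, 11, 17, 18 and 20 gave 1 each. The label of a peak was opposite to the annotated strand in 3169 of 3181 peaks (99.6%) that lay in 1 span of known strand, and in 18 of 18 such ZNF peaks. A peak labelled minus was therefore read as RNA of a plus-strand gene. Counts by strand take only genes of known strand, which are 405 of the 477 ZNF genes but only 10 of the 20 members. The members left out include all 6 on chromosome 8. This filter alone lowers the ZNF share from 4.19% to 2.47% and that of other genes from 8.62% to 7.94%. On chromosome strands with at least 100 peaks, 8 of 61 ZNF genes of known strand had a peak (13.1%, interval 6.80% to 23.8%). Of 4164 other genes there, 950 did (22.8%, 21.6% to 24.1%), and these intervals overlap. This comparison leaves out the 6 members on chromosome 8. By whole chromosome, 6 of 15 ZNF genes and 251 of 699 other genes on chromosome 8 had a peak. On chromosome 10, 3 of 12 and 158 of 722 did. On chromosome 7, 6 of 34 and 286 of 904 did, and on chromosome 5, 1 of 10 and 168 of 893. The ZNF share was thus higher on chromosomes 8 and 10 and lower on 5 and 7, with intervals that overlap on each. On strands with fewer than 100 peaks, where 344 of the 405 ZNF genes of known strand lie, 2 had a peak (0.581%, interval 0.160% to 2.09%). Of 11273 other genes there, 276 did (2.45%, 2.18% to 2.75%), and these intervals do not overlap. The 344 include 114 plus-strand and 96 minus-strand ZNF genes of chromosome 19, so this is not separate from the result for that chromosome. The share without chromosome 19 was not computed. Peaks of either label were counted, and 37 of the 276 other genes lie on strands with 0 peaks. Chromosome 19, where 240 of the 477 ZNF genes lie, gave no member. Its plus-strand genes were sampled by 66 peaks labelled minus, between positions 581201 and 58550800. These peaks had a median of 148 immunoprecipitate reads, compared to 25 and 29 on chromosomes 7 and 8 labelled plus. The 39 ZNF peaks of the list had a median of 42. Whether genes with fewer reads on the plus strand of chromosome 19 were within reach of the list was not tested. None of 114 ZNF genes on that strand had a peak, which allows a share of up to 2.63% by 3 counts of the total and up to 3.26% by the Wilson interval, while 39 of 479 other genes on it (8.14%, interval 6.01% to 10.9%) did. Its minus-strand genes were hardly sampled, since the list had 1 peak labelled plus on chromosome 19. On chromosome 7, 1 of 22 plus-strand ZNF genes and 2 of 9 on the minus strand had a peak. Of other genes, 91 of 399 and 147 of 369 did, with intervals that overlap on both strands. These counts leave out the members ZNF394, ZNF746 and ZNF777 on chromosome 7, whose strand is not known. All their peaks are labelled plus, which on the reading of the opposite label makes them minus-strand genes. The minus-strand ZNF share is therefore too low here.

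**Figure D1:**
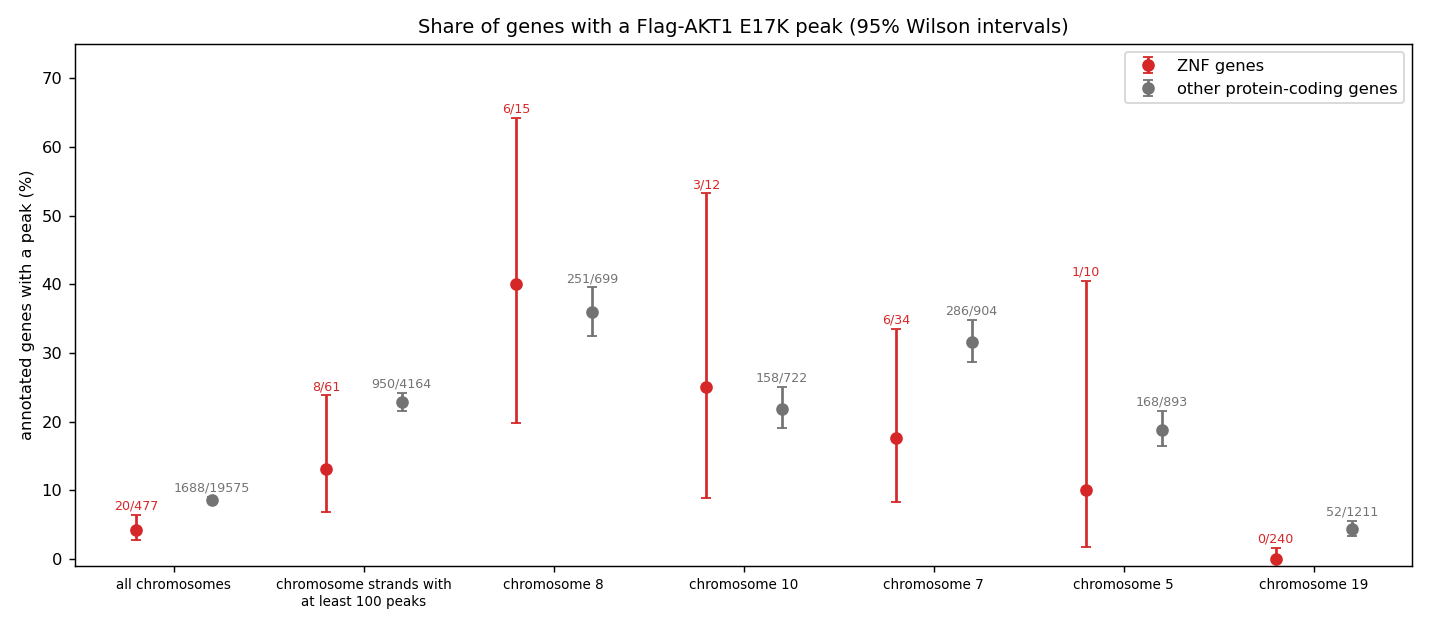
Share of annotated protein-coding genes with a Flag-AKT1 E17K peak, in percent, for ZNF genes (red) and all other protein-coding genes (grey), over all chromosomes and on the chromosomes or chromosome strands named. Bars are 95% Wilson intervals and the numbers above them are genes with a peak over genes annotated. The counts for chromosome strands take only genes of known strand. ZNF genes lie at 4.19% over all chromosomes and at 0 of 240 on chromosome 19, and their intervals overlap those of other genes on chromosomes 5, 7, 8 and 10.

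The 3 members with the most reads were genes without a KRAB domain. ZNF207, also called BuGZ, which binds the checkpoint protein BUB3 and acts at the mitotic spindle, held 277 immunoprecipitate and 119 input reads over 3 peaks, a ratio of 2.33 (interval 1.88 to 2.88). ZNF217, a corepressor-associated transcription factor of the amplified region on chromosome 20, held 236 and 102 reads in 2 peaks, a ratio of 2.31 (1.84 to 2.92). ZNF622, a factor of large ribosomal subunit maturation, held 224 and 106 reads in 4 peaks, a ratio of 2.11 (1.68 to 2.66). These 3 genes had similar ratios, with intervals that overlap each other, and even ZNF207 ranked only 405 of 1708 genes by immunoprecipitate reads. ZNF623 followed with 165 and 65 reads in 1 peak (ratio 2.54). ZNF395, a DNA-binding protein first described for its binding to papillomavirus and huntingtin gene promoters, had 158 and 69 reads in 3 peaks (ratio 2.29). ZNF706, one of the smallest proteins of the family, had 111 and 57 reads in 3 peaks, at 1.95 the lowest ratio among the 13 members with at least 100 reads in both libraries together. In each of these genes immunoprecipitate reads outnumbered input reads, and the same held for every other member, as it did for 99.3% of the peaks outside the family on these unscaled counts. ZNF408, a gene of retinal vessel development, had 101 and 42 reads (ratio 2.40). ZNF22 had 79 and 37 reads (ratio 2.14). ZNF511 had 31 and 8 reads, a ratio of 3.88 (1.81 to 8.28), and both of its peaks also lay in the read-through gene ZNF511-PRAP1 and 1 of them in TUBGCP2, so these reads cannot be given to ZNF511 alone. The remaining members without KRAB were at the edge of detection. ZNF16 had 13 and 2 reads, a ratio of 6.50 with an interval of 1.64 to 25.8. ZNF521, a transcriptional regulator of blood cell and neural progenitors, had 12 reads and 1 read, a ratio of 12 with an interval of 2.0 to 71.9.

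Among members with a KRAB domain, 9 in all, ZNF655 had the most reads. This gene, known as VIK from a binding partner of the signalling protein Vav, held 199 immunoprecipitate and 90 input reads in 2 peaks, a ratio of 2.21 (interval 1.72 to 2.83). ZNF394, which has both a SCAN and a KRAB domain, held 136 and 54 reads in 3 peaks, a ratio of 2.52 (1.84 to 3.45). ZNF746, known as PARIS, a substrate of the ubiquitin ligase parkin and repressor of the mitochondrial regulator PGC-1alpha, held 125 and 47 reads in 4 peaks. Its ratio of 2.66 (1.90 to 3.71) was the highest among the 13 members with at least 100 reads, but its interval overlapped those of all other members. ZNF3 had 123 and 59 reads (ratio 2.08) and ZNF707 had 91 and 43 (ratio 2.12). The other 4 KRAB members had 1 peak each on 13 to 28 immunoprecipitate reads. ZNF485 had 28 and 16 reads (ratio 1.75) and ZNF251 had 20 and 6 (ratio 3.33). ZNF777 had 13 and 8 reads, the lowest ratio of the family at 1.62 (0.691 to 3.82), and ZNF12 had 17 and 3, a ratio of 5.67 with an interval of 1.77 to 18.1. The low and high ends of the family were thus held by genes with few reads. Summed over genes, the 9 KRAB members had a ratio of 2.31 (2.03 to 2.63) and the 11 others 2.31 (2.10 to 2.54), with medians over genes of 2.21 and 2.33.

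**Figure D2:**
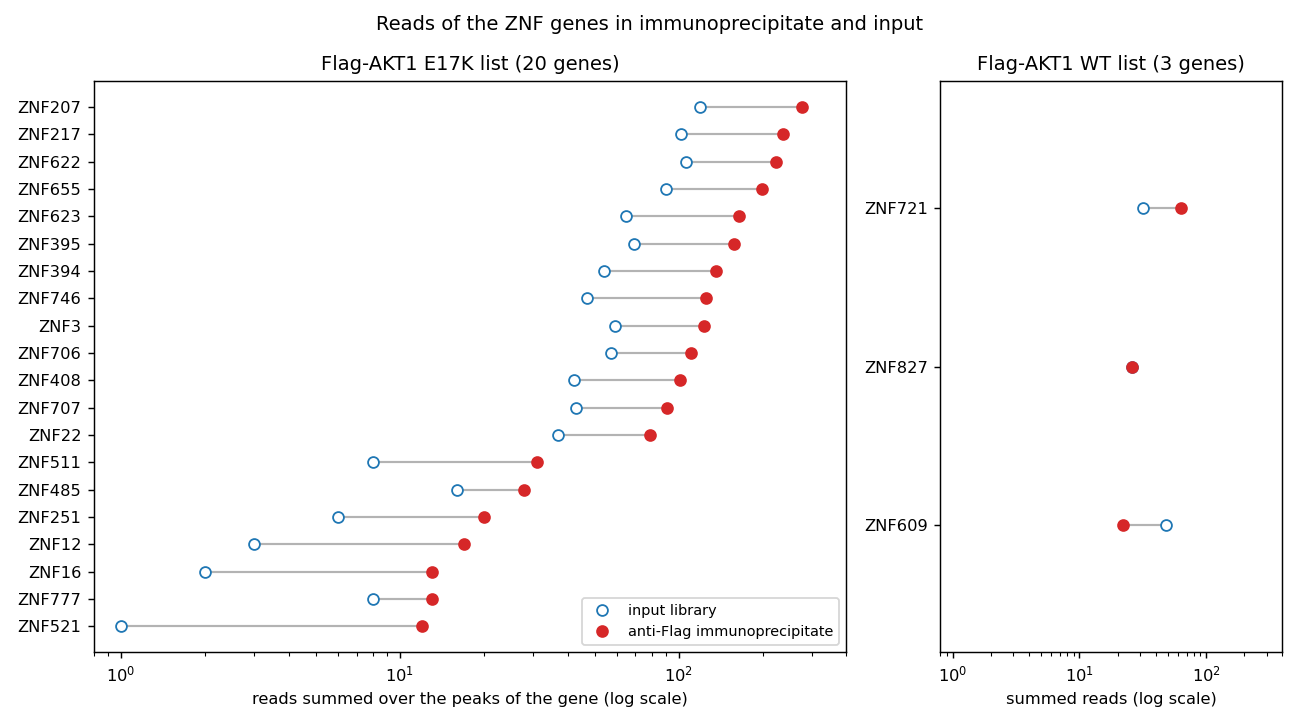
Reads summed over the peaks of each ZNF gene on a logarithmic axis, in the anti-Flag immunoprecipitate (filled red) and the input (open blue), for the 20 genes of the Flag-AKT1 E17K list and the 3 genes of the Flag-AKT1 WT list. Each point is 1 library. In the Flag-AKT1 E17K list the immunoprecipitate lies above the input for all 20 genes, from 277 and 119 reads at ZNF207 to 12 reads and 1 read at ZNF521, as it does in 99.3% of the peaks outside the family; in the other list both points of ZNF827 coincide at 26 reads and ZNF609 has more input reads.

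No ZNF gene stood apart from the list by its ratio of immunoprecipitate to input reads. Each gene was set against all remaining peaks in Fisher's exact test, two-sided and with Benjamini-Hochberg adjustment over the 1708 genes, a test between these libraries and not between conditions. More immunoprecipitate reads were found for 0 of the 20 ZNF genes, where 2.75% of all genes were called, and fewer for 0, where 0.176% were called. Without the AKT1 peaks, 20 of 1707 genes were called higher and 8 lower. No ZNF gene had an unadjusted p under 0.05 either, compared to 14.3% of all genes. The lowest unadjusted p was 0.0736 in the exact test, at ZNF521, and the lowest adjusted p was 0.397. An exact binomial test against the median ratio of all genes also called 0 ZNF genes in either direction, with 14 genes higher and 22 lower in the list. Summed over their 39 peaks, the ZNF genes had a ratio of 2.31 (interval 2.14 to 2.50), compared to 1.95 (1.94 to 1.96) for the other 4799 peaks. Without the AKT1 peaks the latter was 2.06 (2.05 to 2.07). The ZNF interval overlaps neither of these, and no test was made of the difference. Peaks with many reads weigh most in such summed ratios. The median over the 20 ZNF genes was 2.32 (quartiles 2.12 and 2.83), compared to 2.14 (quartiles 1.91 and 2.47) over all 1708 genes. The exact interval of the ZNF median, 2.12 to 2.66, includes the latter value, and 13 ZNF genes lay above it and 7 below. Among genes with at least 100 reads the medians were 2.29 for 13 ZNF genes and 2.09 for 1200 genes in all. The interval of each of the 20 ZNF genes includes the median of all genes, as it does for 85.1% of the list. Immunoprecipitate and input reads followed each other closely across the members (Spearman's rho 0.973 over 20 genes, which share their libraries), as they did over all 1708 genes (0.982). Since ratios differ slightly between chromosome strands, each peak was also set against the median of its own strand. The median of these relative ratios was 1.10 (interval 0.903 to 1.25) for the 39 ZNF peaks and 1.0 for the others.

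**Figure D3:**
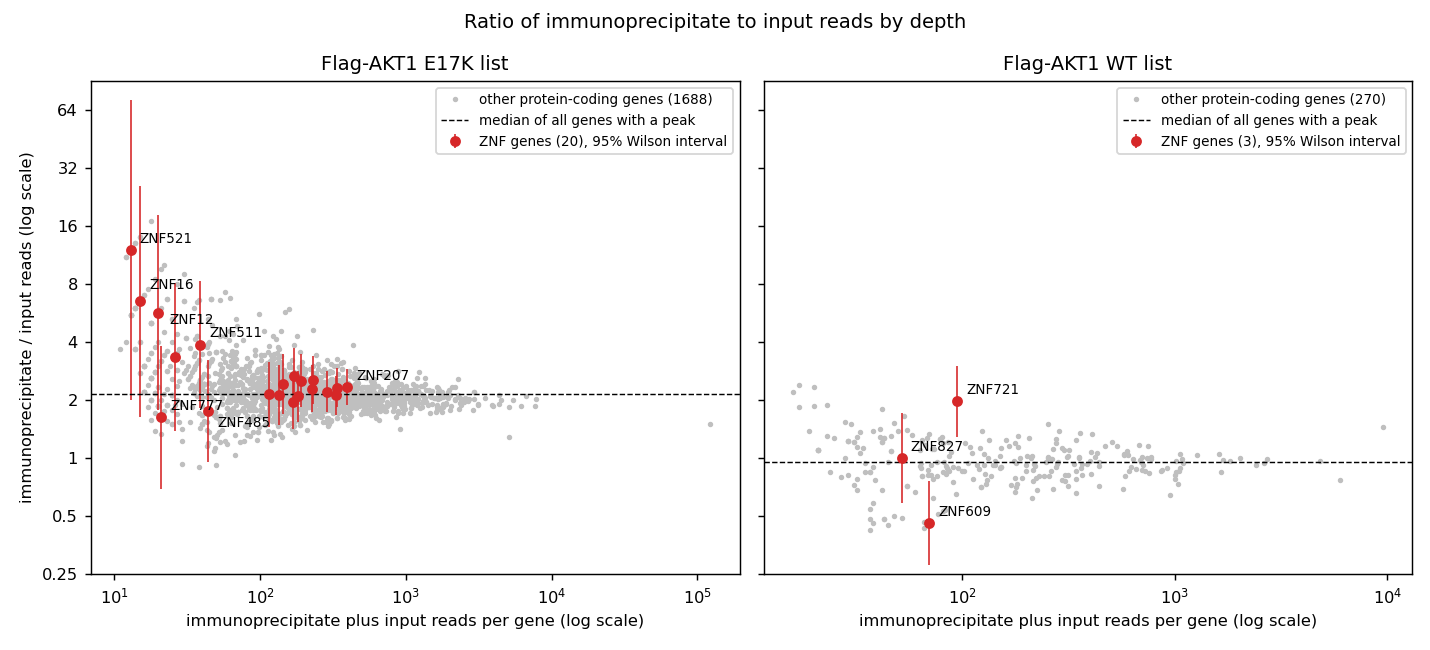
Ratio of immunoprecipitate to input reads against the sum of both for each protein-coding gene with a peak, on logarithmic axes, with ZNF genes in red (95% Wilson intervals) and other genes in grey. The dashed line is the median of all genes of the list, 2.14 on the left and 0.950 on the right; genes with 0 input reads are drawn as if they had 3. The interval of each of the 20 ZNF genes on the left crosses the line, and on the right ZNF721 lies above it and ZNF609 below it.

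ZNF peaks were near the others in depth, and more of them were wide. The median ZNF peak held 42 immunoprecipitate reads (interval 17 to 82) and 21 input reads, compared to 39 and 18 for the other peaks. With symbols that carry a letter suffix also counted, the ZNF median was 24 immunoprecipitate reads, still within this wide interval. The nearness in depth thus depends on the symbols counted. Per gene the median was 106 immunoprecipitate reads, with 124 for the other genes, and 9 of the 20 ZNF genes had a single peak (45.0%), compared to 44.8% of the others. Peaks of at least 1000 bp made up 11 of 39 ZNF peaks (28.2%, interval 16.5% to 43.8%) and 583 of 4799 others (12.1%, 11.3% to 13.1%). Median widths were 430 bp and 400 bp. Widths come in steps that differ between chromosome strands, from 200 to 235 bp on those with ZNF peaks, so they were also divided by the median width of the strand. The median of that relative width was 1.67 for ZNF peaks (interval 1.0 to 2.0) and 1.0 for the others. Immunoprecipitate reads relative to the strand median had a median of 0.788 (0.68 to 1.68) for ZNF peaks and 1.0 for the others. Per kilobase of peak, the median was 74.4 immunoprecipitate reads (58.1 to 92.7) against 102 (98.8 to 105). These intervals do not overlap, and no test was made of the difference, since peaks of 1 library are not replicates. This measure, unlike the others, was not set against the strand. Chromosomes 7 and 8 labelled plus, with medians of 25 and 29 reads per peak, held 11 and 8 ZNF peaks. Chromosomes 1 and 19 labelled minus, with medians of 137.5 and 148, held 0, although chromosome 17 labelled minus, with 139, held 3. The part of strand in the difference was not tested. The widest was at ZNF623 on chromosome 8 from 143650001 to 143654600, which ran past the annotated end of the gene, with 35.9 reads per kilobase. The peak of ZNF707, 2400 bp wide, and 1 peak of ZNF622 also ran past the end of their genes. The peak at ZNF521, on chromosome 18 from 25223731 to 25227510, had 3.17 reads per kilobase, the lowest of all 4838 peaks, the next lowest having 15. At the other end, the 3 peaks of ZNF207 between 32365201 and 32370400 on chromosome 17 were 400 bp wide each and together had 231 reads per kilobase, the most of the family.

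Position in the gene was measured along the span from its 5′ to its 3′ end, with the transcript taken to run opposite to the label of the peak, since no exon annotation was at hand. Of the 39 ZNF peaks, 19 had their centre in the last 25% of the span (48.7%, interval 33.9% to 63.8%), compared to 52.4% (51.0% to 53.9%) of 4767 placements of peaks in other protein-coding genes. Another 15 lay in the middle part and 5 in the first 25%. Within 3000 bp of the 3′ end lay 19 ZNF peaks (48.7%) and 34.7% (33.3% to 36.0%) of the others. ZNF genes with a peak also had shorter spans, with a median of 18164 bp against 28016 bp, so that a fixed distance covers more of them. Of the 9 single-peak members, ZNF12, ZNF16, ZNF251, ZNF485, ZNF623 and ZNF707 had their peak between 91.9% and 97.4% of the way from the 5′ end. The single peaks of ZNF408, ZNF521 and ZNF777 lay at 82.3%, 43.6% and 18.3%. In all, 14 of the 20 genes had a peak in the last 25%, and the 6 without one were ZNF207, ZNF217, ZNF3, ZNF394, ZNF521 and ZNF777. The 3 peaks of ZNF207 lay between 48.0% and 63.2%. ZNF622 had its deepest peak, 127 and 58 reads on chromosome 5 from 16465001 to 16465600, near the 5′ end at 3.50% of the span. The last 25% of the span held 43.0% of the ZNF immunoprecipitate reads, compared to 58.4% for other genes without AKT1. The ZNF ratio was 2.36 in the last 25% and 2.28 before it.

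**Figure D4:**
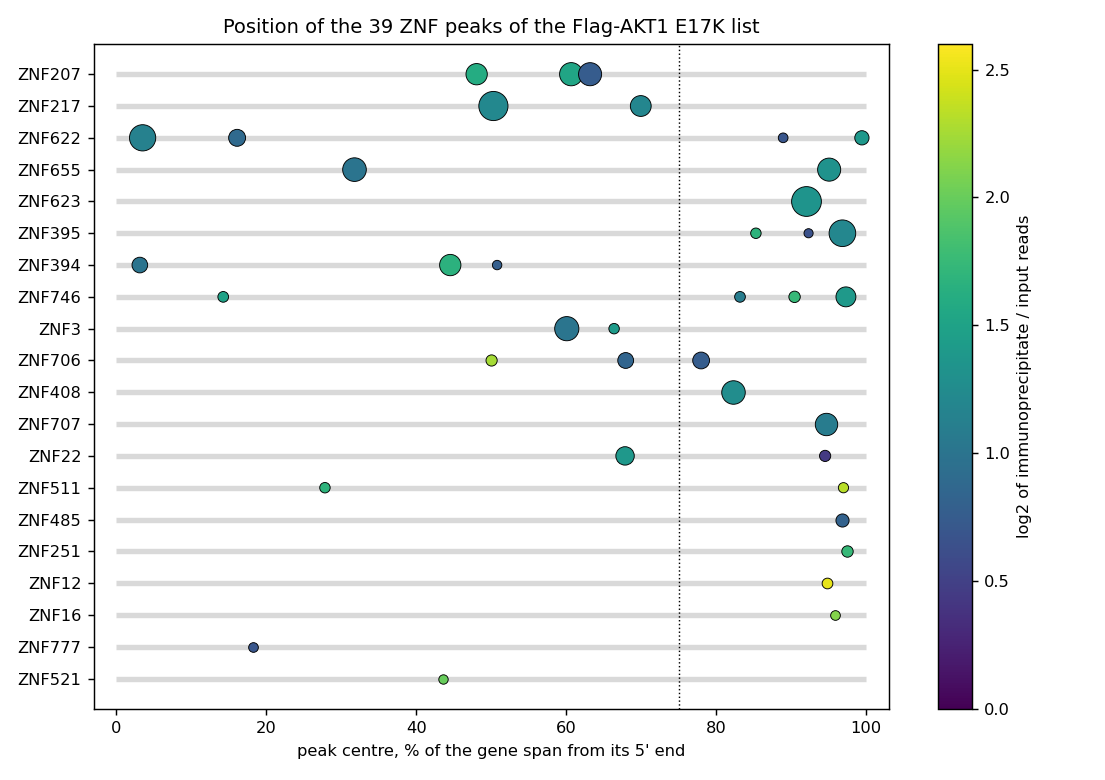
Centre of each of the 39 ZNF peaks of the Flag-AKT1 E17K list along its gene, in percent of the annotated span from the 5′ end, with 1 line per gene ordered by immunoprecipitate reads. The area of a circle grows with the immunoprecipitate reads, its colour gives log2 of the ratio of immunoprecipitate to input reads with input reads under 3 counted as 3, and the dotted line marks 75% of the span. Of the peaks 19 lie to the right of that line, and the 3 peaks of ZNF207 lie between 48.0% and 63.2%.

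Ratios of peaks of the same gene had intervals that overlap. In ZNF207 the peaks had 82 and 27, 98 and 34, and 97 and 58 reads in immunoprecipitate and input, ratios of 3.04 (1.97 to 4.68), 2.88 (1.96 to 4.25) and 1.67 (1.21 to 2.31). In ZNF706 the peaks had 49 and 29, 43 and 24, and 19 and 4 reads, ratios of 1.69 (1.07 to 2.66), 1.79 (1.09 to 2.94) and 4.75 (1.69 to 13.3). Those of ZNF217 were alike at 2.29 and 2.32. At the level of single peaks, 5 of 39 ZNF peaks were at least 4-fold higher in the immunoprecipitate (12.8%, interval 5.6% to 26.7%), at ZNF12, ZNF16, ZNF511, ZNF521 and ZNF706, compared to 8.5% (7.75% to 9.32%) of the others. These 5 peaks had 12 to 19 immunoprecipitate reads, and no ZNF peak was called when all 4838 peaks were tested singly. The share of all peaks called in that test is not given here, so this result cannot be set against the list.

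Like the members, the other zinc finger genes with a peak gave no call. Their summed ratio was 2.28 (interval 2.11 to 2.46) and their median over genes 2.77, with an interval of 2.02 to 3.41 that includes the median of the ZNF genes and that of the list. Of 159 such genes by symbol (ZNF with a letter suffix, and the ZFP, ZKSCAN, ZSCAN, ZBTB, KLF, PRDM and SP families, CTCF and YY1), 13 had a peak in the Flag-AKT1 E17K list. Of all protein-coding genes outside the numbered ZNF series, 8.62% had one. Among the 13, 0 were called higher, where 2.75% of all genes with a peak were, and 0 lower, where 0.176% were. With an unadjusted p under 0.05 in Fisher's exact test there were 4 of 13, ZKSCAN1, ZFP91, ZBTB21 and ZNF37A, compared to 14.3% of all genes. All 4 had ratios above the median of the list, and the binomial test called 0 of the 13. The reads of KLF4 and KLF10, Krüppel-like transcription factors, were the highest at 545 and 438 in the immunoprecipitate, with ratios of 2.02 and 1.89, above those of any ZNF member in reads. ZKSCAN1 had 219 and 79 reads (ratio 2.77). ZNF37A on chromosome 10 had 47 and 11, the highest ratio of these genes at 4.27 (interval 2.24 to 8.15). Of 18 corepressors and silencing factors that act with KRAB proteins, 2 had a peak, where 8.62% of protein-coding genes outside the numbered ZNF series did. TRIM28, the direct partner of the KRAB domain, held 1015 and 585 reads on chromosome 19, a ratio of 1.74 (1.57 to 1.92) with an adjusted p of 0.240 in Fisher's exact test, although the binomial test called it lower (adjusted p = 0.00715). TASOR2 held 899 and 324 reads in 10 peaks, a ratio of 2.77 (2.44 to 3.15), and was called higher (adjusted p = 8.57e-06 in Fisher's exact test). TRIM28 thus had more reads than any ZNF gene and a ratio below their median, while SETDB1 had no peak.

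The Flag-AKT1 WT list, with 808 peaks and 273 protein-coding genes, had 4 peaks in 3 other ZNF genes, and no ZNF gene had a peak in both lists. A comparison between the plasmids cannot be drawn from this. The Flag-AKT1 WT list had at most 1 peak on any chromosome strand of the 20 members, and the Flag-AKT1 E17K list had 0 peaks on chromosome 4 and on the strand of chromosome 15 labelled minus. ZNF721 on chromosome 4, a gene with a long array of fingers, had a peak from 441366 to 444440 that also lies in the pseudogene ABCA11P. It held 63 immunoprecipitate and 32 input reads, a ratio of 1.97 (interval 1.29 to 3.00) where the median of the list was 0.950. It was called higher in Fisher's exact test with an adjusted p of 0.0331, as were 1.47% of the genes of this list, and in the binomial test (adjusted p = 0.0251). ZNF827, which recruits the NuRD complex to telomeres, had 26 and 26 reads over 2 peaks, a ratio of 1.0 (0.584 to 1.71), and 1 of these peaks also lies in C4orf51. ZNF609, a chromatin factor whose gene also gives a circular RNA in muscle cells, had 22 and 48 reads on chromosome 15 from 64675656 to 64676475. Its ratio of 0.458 (0.278 to 0.755) was the lowest of the 3 genes, and it fell short of the threshold (adjusted p = 0.0514 in Fisher's exact test, with 3.30% of genes called lower). The 111 and 106 reads of the 3 genes together gave 1.05 (0.803 to 1.37) against 0.979 for the other 804 peaks.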

How the data were processed

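RIP-seq peak lists of MDA-MB-231 cells were analysed as the authors deposited them, 1 list for each plasmid. For each peak the authors deposited 2 whole-number read counts, 1 from the immunoprecipitate and 1 from a control, without normalization, and an adjusted p-value. The latter was used only for an alternative threshold. The submitters' processing notes name Bowtie2 2.2.8 and hg18, yet the peaks lie in the gene spans of GRCh38.p14 with the opposite strand label, so those spans were used. The peak caller and its filters are not given in the sources used here. Gene strands came from the RefSeq promoter table, which held 405 of the 477 ZNF genes.

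Reads were summed per gene, and a peak in several spans counted for each. Input counts of 3 or fewer were set to 3 for medians and percentiles only. Fisher's exact tests and exact binomial tests (scipy 1.17.1, Python 3.11.15) were adjusted by Benjamini-Hochberg at 0.05. Fisher's exact test was tried on simulated data, and the binomial test was not. The edgeR and DESeq2 tools were not used, since each group had 1 library. The members, gene lists and tests were chosen with earlier results of these data known. The genes named are the 12 members with the most immunoprecipitate reads, the 5 highest and 5 lowest ratios on at least 30 reads, the 3 with the most peaks, up to 8 of the Flag-AKT1 WT list and any gene called; the remaining members were named after their values were seen. The KRAB grouping is background knowledge and was not planned. Alternatives are given in the closing section.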

Additional observations from a re-analysis of the deposited data

How the results depend on the processing

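Of 126 values computed for 14 results under alternative settings, 27 moved and 99 did not, where moving means by over 1.5 times for a count and beyond the 95% interval for a ratio, share or median. Peaks at least 4-fold higher in the immunoprecipitate numbered 5 in 5 ZNF genes with Flag-AKT1 E17K. They held 0.869% of the reads of all such peaks, with a summed ratio of 5.85, a median ratio of 4.75, a median of 15 reads and 215 bp per peak and 3 peaks in the last 25% of the span. In the Flag-AKT1 WT list they left 0 ZNF genes and 0 calls. A minimum of 30 immunoprecipitate reads left 21 peaks in 13 genes, with 0.414% of the immunoprecipitate reads of all peaks kept, medians of 91 reads and 940 bp per peak and 8 peaks in the last 25%, and in the Flag-AKT1 WT list 1 gene, ZNF721, with a ratio of 1.97. Symbols with a letter suffix raised the share of reads to 0.473%. They also lowered the median reads per ZNF peak from 42 to 24, which stayed within its wide interval and so did not count as moved. Peaks whose label equals the gene strand left 0 ZNF peaks, 0 genes, 0 in the last 25%, and 0 genes and 0 calls in the Flag-AKT1 WT list. Peaks with the opposite label and a known strand, a setting chosen after seeing the data, left 20 peaks in 10 genes. Without peaks in another protein-coding span, 1 ZNF gene of the Flag-AKT1 WT list, ZNF609, was called lower. In the main setting its adjusted p was 0.0514 in Fisher's exact test, and 3.30% of the genes of that list were called lower. The share called lower under the alternative setting is not given here. Over all genes of the Flag-AKT1 E17K list, 47 were called higher and 3 lower, 20 and 8 without the AKT1 peaks, and 14 and 22 in the binomial test. Ratios and medians have no value where no peak is left. The planned share of peaks in the last exon was not run, as no exon annotation was used here, and the last 25% of the span took its place. No paired analysis was possible because each group had 1 library. Depth also limits single genes, as 7 of the 20 members had fewer than 100 reads in both libraries together.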
